A study of Bos taurus with 12 samples.

Results

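This account describes 44 bovine genes of the splicing machinery in embryos made in vitro from oocytes of prepubertal heifers or of adult cows. They are the 9 SRSF, 16 HNRNP, 8 SNRP, 9 SF3A or SF3B (SF3) and 2 U2AF genes that the platform annotation names on a probe set of a single gene. The choice went by symbol alone: SRSF, SF3A or SF3B followed by a number, or a symbol beginning with HNRNP, SNRP or U2AF. It gave 66 probe sets, and each gene was read on its brightest one, by the mean of log2(signal + 16) over the 12 arrays. The array held 24016 probe sets and 9155 genes named in this way, each of those genes likewise read on 1 probe set. RefSeq lists 55 bovine genes of these names. SRSF2, SRSF12, HNRNPA1, HNRNPA2B1, HNRNPA3, HNRNPUL2, SNRPD1, SNRPE, SNRPF, SNRPN and U2AF2 are the 11 for which no probe set of a single gene is named here, so they were not analysed.

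Splicing removes introns from pre-mRNA in the spliceosome, which is built on each intron from small nuclear ribonucleoproteins (snRNPs). SNRP genes encode snRNP proteins: the Sm proteins form the ring around each small nuclear RNA, and others belong to the U1 or U2 snRNP alone. U2AF reads the end of the intron and brings in the U2 snRNP, whose SF3A and SF3B subunits hold the branch point. SR proteins (SRSF) and hnRNPs bind exons and introns and set which sites are used, often in opposite directions, and many of them also act in export, stability or translation of mRNA. The cleavage-stage bovine embryo inherits much of its RNA from the oocyte and starts its own transcription in earnest at about the 8-16-cell stage.

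The embryos were of Japanese Black cattle, in 4 groups of 3 arrays: prepubertal blastocysts, adult blastocysts, prepubertal 8-16-cell embryos and adult 8-16-cell embryos. Blastocysts were expanded, not hatched, taken on day 7 in pools of 10. The 8-16-cell embryos were taken on day 3, at 70 to 72 hours after insemination, in pools of 50. In all groups oocytes were matured, fertilised with frozen semen and cultured in vitro. The heifers were 9 to 12 months old and their ovaries were removed on farms with a spay device, whereas the cows' ovaries came from an abattoir, so donor age and the way ovaries were collected cannot be told apart. Stage and pool size cannot be told apart either. The labels call the replicates biological but do not say whether pools shared animals, semen or a culture day. The p-values therefore rest on the spread between these pools, mostly that of probe sets of like mean signal and less the gene's own. In pooled embryos, fewer cells of a type and less RNA per cell cannot be told apart.

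Each value is a MAS5 signal, scaled by the authors so that every array has the same trimmed mean, and is therefore relative to the rest of that array. The highest of 27 bacterial control probe sets was taken as each array's background. The labels do not say whether these controls were added to the RNA; if they were, this background is too high and the folds given as "at least" are too low. It lay between 121.8 and 423.8 on 11 arrays and at 1664 on prepubertal 8-16-cell replicate 3. That array had 1255 probe sets above background, against 4297 to 8500 on the others. Where signals were floored at the highest background, the floor was 1664 on every array. It therefore also replaced signals above their own array's background. Of 6 oocyte-derived transcripts listed, 4 were measured. Their summed signal lay at 141.2 to 658.3 in all blastocyst pools and at 30239 to 254696 in all 8-16-cell pools. BMP15 and KPNA7 were above background on 6 of 6 8-16-cell arrays and GDF9 on 5. NLRP5 was above it on 0 of 6 8-16-cell arrays and on 1 of 6 blastocyst arrays. The summed signal of 7 blastocyst markers lay at 88255 to 175119 in blastocysts and at 402.4 to 1829 in 8-16-cell embryos. All 8 cumulus and granulosa markers were measured, of which 3 were never above background. Their sum was 1489 to 1852 in prepubertal blastocysts, 1557 to 3799 in adult blastocysts, 1346 to 13766 in prepubertal 8-16-cell embryos and 1196 to 4280 in adult ones. These sums join markers that went opposite ways. HAS2 was above background on 6 of 6 blastocyst arrays and 2 of 6 8-16-cell arrays, and STAR on 2 of 6 and 6 of 6. The 5 blood markers summed to at most 512 in blastocysts and 2011 in 8-16-cell embryos, and the 5 sperm markers to at most 1453 and 2287. The part of such RNA in the results below was not tested.

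Most of the 44 genes gave a signal. Between 38 and 44 of them were above background in prepubertal blastocysts, 37 to 40 in adult blastocysts, 18 to 34 in prepubertal 8-16-cell embryos and 36 to 40 in adult 8-16-cell embryos. The lowest count, 18, was on prepubertal 8-16-cell replicate 3, where the background was highest. With a fixed signal of 500 in place of the background, an alternative chosen after seeing the data, 26 genes passed on that array and 31 to 42 on the other 11. On all 12 arrays, 18 genes were above background: 10 of 16 HNRNP, 5 of 9 SRSF, 2 of 8 SNRP, 1 of 9 SF3 and 0 of 2 U2AF genes. Median values and tests over the SNRP, SF3 and U2AF genes therefore include many signals near background. Replicates scattered more in some families than in others: the median over genes of the pooled SD (log2) was 1.92 for SF3, 1.35 for SNRP, 1.02 for HNRNP, 1.003 for U2AF and 0.95 for SRSF.

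Differences between groups were tested with limma on log2(signal + 16), fitted on all 24016 probe sets and adjusted over all of them by the Benjamini-Hochberg method, with an adjusted p under 0.05 counted as called. Blastocysts were compared with 8-16-cell embryos over both donor groups. In that comparison 5 of the 44 genes were called, or 11.4%, against 6.40% of all probe sets and 9.87% of the 9155 genes. SRSF6 and SRSF9 were higher in blastocysts (3.90% of all probe sets were called higher), and SRSF3, HNRNPDL and SNRPG were lower (2.51%). An unadjusted p under 0.05 was reached by 11 of the 44, or 25.0%, against 21.8% of all genes. The fit lets the spread depend on the mean signal. Without that trend only SRSF6 of the 5 was called, and adjusted p in limma was 0.0934 for SRSF3, 0.157 for HNRNPDL, 0.251 for SNRPG and 0.0881 for SRSF9. Many of these genes are bright, and bright genes were called more often: among genes with a mean of at least 12 on the log2 scale, 4 of 22 splicing genes were called (18.2%), against 33.5% of all 462 such genes. The stages did not overlap in 3 of the 44, SRSF3, HNRNPDL and SRSF9, or 6.82%, against 3.44% of all probe sets and 5.63% of genes. Among genes with a mean of at least 12 it was 3 of 22 (13.6%), against 26.6% of all 462. The difference between these shares was not tested.

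Among the SR proteins, SRSF3, which acts in alternative splicing and in export of mRNA, fell with stage. Its signal was 10595, 8384 and 15156 in prepubertal blastocysts and 15785, 12866 and 24679 in adult blastocysts. It was 94788, 53400 and 62646 in prepubertal 8-16-cell embryos and 52280, 38009 and 92578 in adult 8-16-cell embryos. All 6 blastocyst pools lay below all 6 8-16-cell pools. On the log2 scale the mean was 13.75 ± 0.53 in blastocysts and 15.93 ± 0.51 in 8-16-cell embryos (SD, n = 6 each). The limma difference was −2.18 (SE 0.51, adjusted p = 0.00128), which is 4.53-fold lower in blastocysts.

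SRSF9, an SR protein with a short RS domain, moved the other way. Its signal was 17316, 14470 and 38131 in prepubertal blastocysts and 24588, 16064 and 21603 in adult blastocysts. It was 2605, 2764 and 8932 in prepubertal 8-16-cell embryos and 4357, 1656 and 11615 in adult ones. Here too the stages did not overlap, with every blastocyst pool above every 8-16-cell pool. The limma difference was 2.31 (SE 0.69, adjusted p = 0.0214), or 4.95-fold higher in blastocysts. The call was lost without any one of 4 arrays: adjusted p was 0.0865 without adult 8-16-cell replicate 2, 0.0961 without prepubertal blastocyst replicate 3, 0.0631 without adult blastocyst replicate 1 and 0.0568 without adult blastocyst replicate 3.

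SRSF6, an SR protein that regulates alternative exons, had a signal of 1163, 1476 and 1144 in prepubertal blastocysts and 265.4, 3163 and 10831 in adult blastocysts. It was at 2285, 15.4 and 27.8 in prepubertal 8-16-cell embryos and 11.1, 833.9 and 26.9 in adult ones. It was above background on 6 of 6 blastocyst arrays and 2 of 6 8-16-cell arrays, and those 2 overlapped the blastocysts. The limma difference was 3.77 (SE 1.07, adjusted p = 0.0136). Its size is uncertain, because the values were below background in 4 pools. With signals floored at the highest background, 1664, the limma difference was 0.53 (adjusted p = 0.432). That floor also replaced values above their own background: 1163, 1476, 1144 and 265.4 in blastocysts and 833.9 in adult 8-16-cell embryos. How much of the fall came from the dim pools was not tested.

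The remaining SR genes were not called. SRSF1, the best known SR protein, was 11847 to 28161 in the 6 blastocyst pools and 9865 to 90957 in the 8-16-cell pools, a difference of −0.99 (SE 0.51, adjusted p = 0.318). In adult embryos its 3 blastocyst pools lay below its 3 8-16-cell pools, and in prepubertal embryos the stages overlapped. The differences of SRSF4, SRSF5, SRSF7, SRSF10 and SRSF11 ran from −1.27 for SRSF11 to 2.33 for SRSF10. Over the 9 SR genes, 5 differences were above 0 and 4 below, with a median of 0.30. Of all genes 48.7% were above 0, with a median of −0.04.

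**Figure D1:**
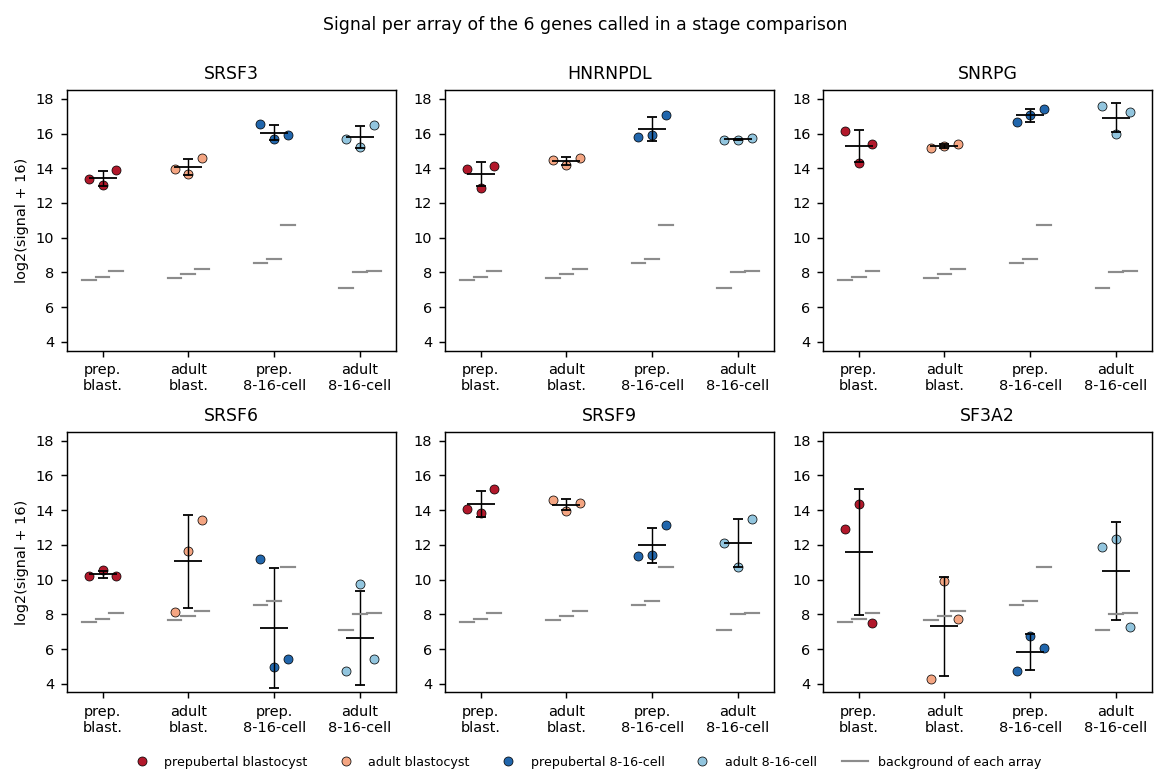
Signal of the 6 called genes on each array, on the log2(signal + 16) scale, with 1 panel per gene and the groups in the order prepubertal blastocyst, adult blastocyst, prepubertal 8-16-cell and adult 8-16-cell. Points are arrays, lines are the mean ± SD of 3 arrays and grey bars mark each array's background; SRSF3 and HNRNPDL are lower and SRSF9 higher in all 6 blastocyst pools, whereas SRSF6 and SF3A2 include pools at background.

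HNRNPDL, a relative of the AU-rich element binding protein HNRNPD, was the 1 called gene of the 16 hnRNPs. Its signal was 16169, 7449 and 17753 in prepubertal blastocysts and 22621, 18603 and 24783 in adult blastocysts. It was 57660, 61753 and 135326 in prepubertal 8-16-cell embryos and 51378, 51411 and 53751 in adult ones. The stages did not overlap. The limma difference was −1.93 (SE 0.49, adjusted p = 0.00399), or 3.81-fold lower in blastocysts. A second HNRNPDL probe set gave 0.51 (SE 0.97, adjusted p = 0.877), and with both averaged the call was lost (−0.71, adjusted p = 0.657).

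The other hnRNPs were not called over both donor groups. HNRNPC, which binds uridine tracts, was 2346 to 16341 in blastocysts and 11957 to 46337 in 8-16-cell embryos (−1.56, SE 0.66, adjusted p = 0.174). HNRNPK, which binds cytidine-rich RNA, gave −0.96 (SE 0.52), and HNRNPD −0.85 (SE 0.45). HNRNPF, which binds runs of guanosine, gave −0.43 (SE 0.47). Its relative HNRNPH1 gave 1.73 (SE 0.73, adjusted p = 0.172), with blastocysts at 8948 to 43240 and 8-16-cell embryos at 116.3 to 15510. The lowest of these, 116.3, was prepubertal 8-16-cell replicate 3, and without that array the difference was 0.59. Without another single array it reached 2.31, and HNRNPH1 was called in 1 of 21 alternatives (limma adjusted p = 0.0483). HNRNPL, which binds CA repeats, had a signal of 1625, 6.9 and 37072 in prepubertal blastocysts, 18359, 137.4 and 605.5 in adult blastocysts, 6.7, 1158 and 31.2 in prepubertal 8-16-cell embryos and 140.9, 320.5 and 120.1 in adult ones (3.01, SE 1.11, adjusted p = 0.0905). The HNRNPL pools of a single group differed widely, and the stages overlapped. The HNRNPL difference ran from 1.74, without prepubertal blastocyst replicate 3, to 4.41 without single arrays. It was called in 3 of 21 alternatives, with a lowest limma adjusted p of 0.0059. Of the 16 hnRNP differences 8 were above 0 and 8 below, with a median of −0.20.

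SNRPG, a protein of the Sm ring, was the 1 called gene of the 8 SNRP genes. Its signal was 72409, 20609 and 42478 in prepubertal blastocysts and 37472, 40267 and 43598 in adult blastocysts. It was 105918, 135546 and 177785 in prepubertal 8-16-cell embryos and 193980, 63559 and 151806 in adult ones. A single pair crossed: prepubertal blastocyst replicate 1 was above adult 8-16-cell replicate 2. The limma difference was −1.69 (SE 0.39, adjusted p = 0.00104), or 3.23-fold lower in blastocysts, with −1.78 in prepubertal and −1.61 in adult embryos. After quantile normalization these were −0.89 and −1.46. The other measured Sm genes gave 0.01 (SNRPB, SE 1.04), −0.04 (SNRPD2, SE 1.04) and 1.15 (SNRPD3, SE 1.04), none called. Among the snRNP-specific proteins, the U1 protein SNRPC gave 0.87 (SE 0.82) and the U2 protein SNRPA1 −0.27 (SE 0.65). The U1 protein SNRPA was above background on 1 of 12 arrays and gave −0.88 (SE 0.95).

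Neither the SF3 nor the U2AF genes had a call over both donor groups, and none had an unadjusted p under 0.05 in limma. SF3B1, the large SF3B subunit at the branch point, gave −1.38 (SE 0.77, adjusted p = 0.367) on its brightest probe set. SF3B6, which touches the branch point, gave −1.37 (SE 0.97), SF3B2 0.89 (SE 0.90) and SF3A3 1.17 (SE 0.91). Without single arrays the SF3B6 value ran from −2.54 to −0.45, the latter without prepubertal 8-16-cell replicate 1. SF3B6 was called in 1 of 21 alternatives (limma adjusted p = 0.0454). The SF3A3 value ran from 0.30, without prepubertal 8-16-cell replicate 3, to 2.13, and was called in none. U2AF1, which reads the AG at the end of the intron, gave 1.39 (SE 1.03), and its relative U2AF1L4 0.80 (SE 1.01). U2AF1 was above background on 4 of 6 blastocyst arrays and on 0 of 6 8-16-cell arrays. With signals floored at the highest background its difference was 0.06, but that floor also replaced blastocyst values above their own array's background. The medians of the 5 families lay between −0.20 and 1.09, with the highest that of the 2 U2AF genes.

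**Figure D2:**
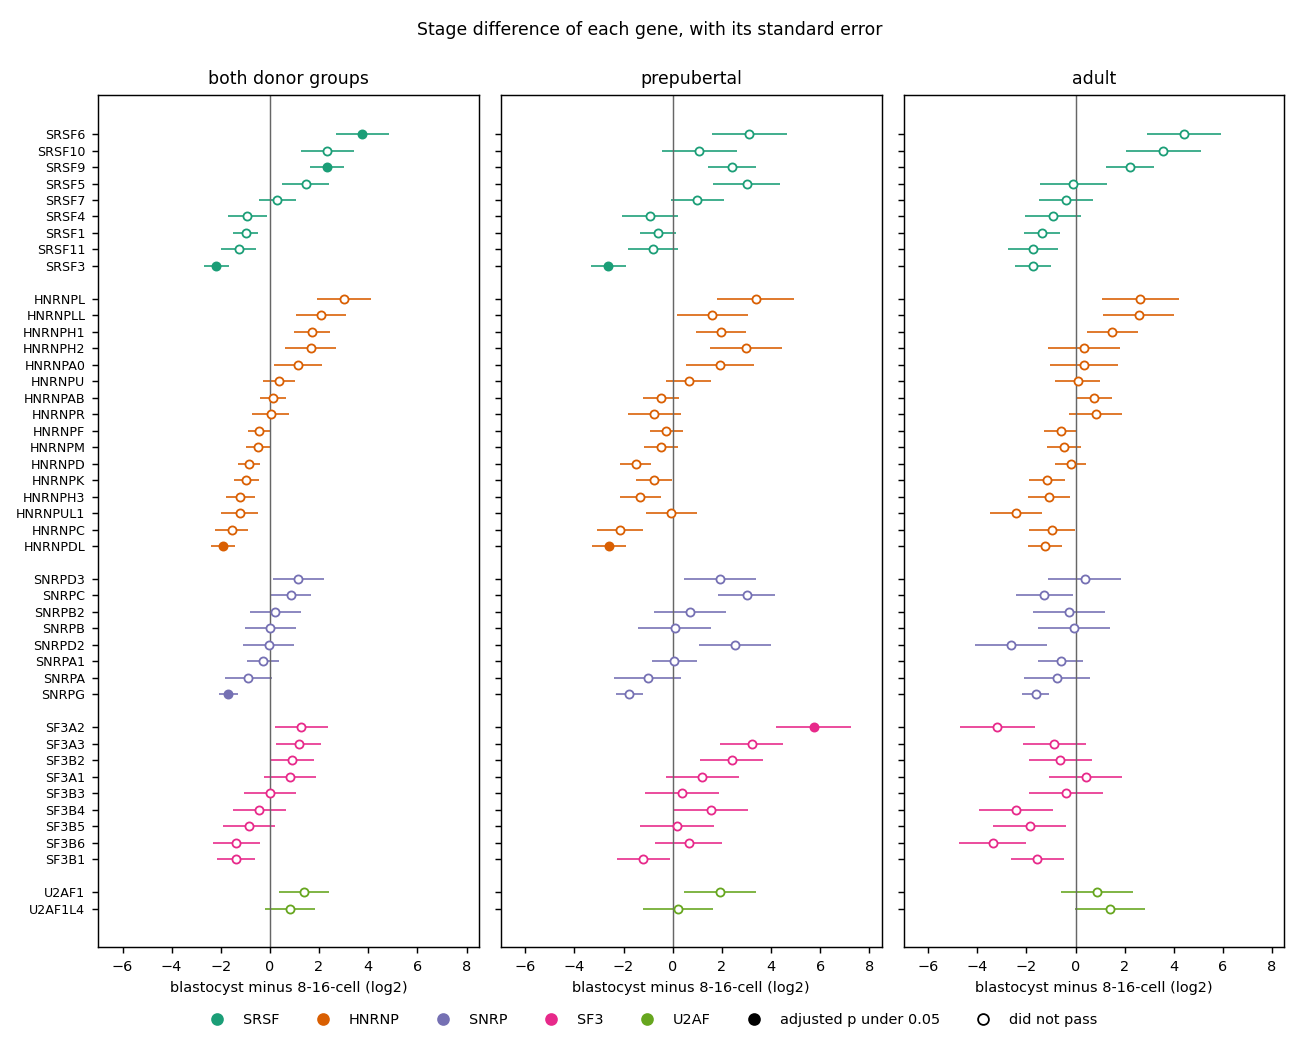
Difference between blastocysts and 8-16-cell embryos (log2, blastocyst minus 8-16-cell) of each of the 44 genes, grouped by family, over both donor groups and within prepubertal and adult embryos. Filled points are genes called by limma: 5 over both groups, 3 in prepubertal embryos and 0 in adult embryos.

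Within prepubertal embryos 3 of the 44 genes were called between the stages, or 6.82%, against 2.34% of all probe sets and 3.95% of genes. Among genes with a mean of at least 12 on the log2 scale, 2 of 22 splicing genes were called (9.09%), against 21.2% of all 462. SRSF3 fell by 2.62 (SE 0.72, adjusted p = 0.021) and HNRNPDL by 2.60 (SE 0.69, adjusted p = 0.017) on the log2 scale. SF3A2, a subunit of SF3A, was higher. Of all probe sets 1.43% were called higher and 0.912% lower. In adult embryos 0 of the 44 were called by limma, against 2.13% of all probe sets and 3.17% of genes, and 8 had an unadjusted p under 0.05, or 18.2%, against 15.1% of genes. Of all 462 genes with a mean of at least 12, 12.1% were called in adult embryos. The adult differences were −1.73 for SRSF3 (SE 0.72, adjusted p = 0.256) and −1.25 for HNRNPDL (SE 0.69, adjusted p = 0.519). The differences between donor groups in these stage effects were tested and were not called either (−0.89, SE 1.01, for SRSF3 and −1.35, SE 0.98, for HNRNPDL). The groups of 3 pools did not overlap for 13 genes in prepubertal embryos (16.6% of all probe sets and 19.7% of genes did so) and for 12 in adult embryos (17.2% and 21.0%). Of those 13, 6 were higher and 7 lower in blastocysts (7.35% and 9.24% of all probe sets), and of the 12, 3 were higher and 9 lower (9.55% and 7.62%). Among genes with a mean of at least 12, 8 of 22 splicing genes did not overlap in prepubertal embryos (36.4%), against 48.7% of all 462. In adult embryos it was 10 of 22 (45.5%), against 45.7%. Of these 10, 2 were higher and 8 lower, and of all 462 genes 92 were higher and 119 lower. Calls were lost without single pools: SRSF3 without prepubertal 8-16-cell replicate 1 (adjusted p = 0.0843) or prepubertal blastocyst replicate 1 (0.0916) or 2 (0.135), and HNRNPDL without prepubertal blastocyst replicate 2 (0.17).

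The SF3A2 signal was 7695, 20996 and 167 in prepubertal blastocysts, 3.6, 949.4 and 192.5 in adult blastocysts, 10.5, 92.2 and 50.8 in prepubertal 8-16-cell embryos and 3708, 5197 and 135.8 in adult 8-16-cell embryos. In each of the groups with high signals, 1 pool of 3 was low. No prepubertal 8-16-cell array was above background, so the stage difference in prepubertal embryos is a bound, at least 4.76-fold higher in blastocysts (limma, adjusted p = 0.0169). Without prepubertal 8-16-cell replicate 1, prepubertal blastocyst replicate 1 or prepubertal blastocyst replicate 2, adjusted p was 0.0809, 0.142 and 0.237, and with signals floored at the highest background it was 0.24. In adult embryos the difference was −3.18 (SE 1.53, adjusted p = 0.393). The difference between the donor groups at the 2 stages was fitted at 8.93 (SE 2.16), on values of which many were at background, and was not called (adjusted p = 0.251). With signals floored at the highest background it was 2.87. The probe set is of the kind with the suffix _s_at, whose probes can be shared by several transcripts. The other SF3A2 probe set was above background on 1 of 3 arrays in prepubertal blastocysts (315.2, 100.8 and 192.4). In prepubertal 8-16-cell embryos it was above background on 1 of 3 (357.3, 18.3 and 96), so it cannot decide the prepubertal difference. In adult embryos it was above background on 2 of 3 blastocyst arrays and on 0 of 3 8-16-cell arrays. Its adult difference was 1.996 (SE 1.39, limma adjusted p = 0.689), opposite in sign to that of the brighter probe set. With both probe sets averaged, the call in prepubertal embryos was lost (3.29, limma adjusted p = 0.227).

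Of the 44 genes, 14 had several probe sets, and in 9 of these the stage differences of the probe sets disagreed in sign. Several of those signs came from probe sets at background. Counting, after the data were seen, only probe sets above background on at least 6 of 12 arrays, 9 genes had several and 4 of them disagreed: SRSF1, HNRNPDL, HNRNPK and SF3B1. The differences ran from −2.01 to 0.09 for SRSF1, from −0.96 to 0.21 for HNRNPK and from −1.93 to 0.51 for HNRNPDL. The positive values of SRSF1 and HNRNPK thus lay near 0. Among the 4 genes SF3B1 had the widest spread. On its brightest probe set the signal was 3676, 5836 and 4786 in prepubertal blastocysts, 5828, 3918 and 1111 in adult blastocysts, 6725, 5910 and 31483 in prepubertal 8-16-cell embryos and 9630, 14158 and 4772 in adult ones. On another of its probe sets it was 7367, 5154 and 3613 in prepubertal blastocysts, 4169, 5577 and 2825 in adult blastocysts, 41.5, 17.6 and 637.4 in prepubertal 8-16-cell embryos and 1307, 188.8 and 7 in adult ones. Here every blastocyst pool was above every 8-16-cell pool, and 1 of the 6 8-16-cell arrays was above background. The difference on this probe set was 5.02 (SE 1.04, limma adjusted p = 0.000188), and in prepubertal embryos it was at least 7.96-fold higher in blastocysts (adjusted p = 0.0147). The 2 further SF3B1 probe sets gave −0.78 (SE 1.04) and −0.63 (SE 1.06). Of the 22 probe sets not used for a gene's value, 2 were called higher in blastocysts over both donor groups, those of SF3B1 and HNRNPL (3.23, SE 1.04, adjusted p = 0.0378), and 1 lower, of HNRNPUL1 (−2.85, SE 0.92, adjusted p = 0.0392).

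**Figure D3:**
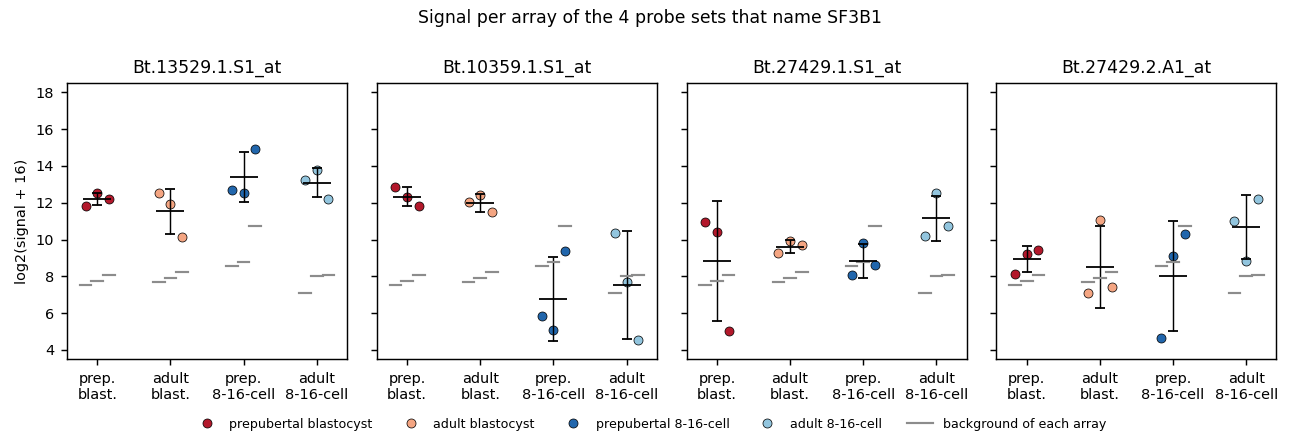
Signal of the 4 probe sets that name SF3B1 on each of the 12 arrays (log2(signal + 16)), in the same group order as for the called genes, with grey bars for background. One probe set is higher in all 6 blastocyst pools than in all 6 8-16-cell pools; the other 3 show stage differences of −1.38 to −0.63, none called.

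The donor groups were compared within each stage. In blastocysts 0 of the 44 genes were called between prepubertal and adult pools by limma, against 0.00% of all probe sets, and 4 (9.09%) had an unadjusted p under 0.05, against 3.90% of genes. In 8-16-cell embryos 0 were called, against 0.0208% of all probe sets, and 6 (13.6%) had an unadjusted p under 0.05, against 8.75% of genes. The change of the donor difference between the stages was called for 0 genes and for 0.00% of probe sets, with 5 of the 44 (11.4%) at an unadjusted p under 0.05, against 5.69% of genes. The groups of 3 did not overlap for 6 genes in blastocysts (9.82% of probe sets and 10.2% of genes) and for 5 genes in 8-16-cell embryos (12.7% and 12.3%).

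The U2AF1 signal was 2158, 660.4 and 1617 in prepubertal blastocysts and 52.5, 104.1 and 368.8 in adult blastocysts. The groups did not overlap, and 2 of the 3 adult pools were below background. The fitted difference was 3.19 (SE 1.46) and was not called by limma. With signals floored at the highest background it was 0.12. That floor also replaced values above their own array's background in both donor groups, so 0.12 does not measure the difference. In 8-16-cell embryos all 6 U2AF1 values were below background. SRSF5, an SR protein, and HNRNPUL1 were likewise higher in all 3 prepubertal than in all 3 adult blastocyst pools, and HNRNPD, HNRNPDL and U2AF1L4 were lower. None of these was called.

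HNRNPH2, a guanosine-run binding relative of HNRNPH1, was 8.3, 338.3 and 117 in prepubertal 8-16-cell embryos and 1631, 1621 and 499.5 in adult 8-16-cell embryos. The groups did not overlap, and none of the prepubertal arrays was above background. The difference is a bound of at least 1.72-fold lower in prepubertal embryos and was not called (limma adjusted p = 0.491). SF3B6 was 13120, 2141 and 24.5 in prepubertal 8-16-cell embryos and 7000, 9565 and 11171 in adult ones (−3.12, SE 1.37). SNRPC was 9279, 6259 and 37.6 in prepubertal 8-16-cell embryos and 11406, 19602 and 7649 in adult ones (−3.03, SE 1.16, adjusted p = 0.43). In both genes the lowest value was that of prepubertal 8-16-cell replicate 3, the array with the highest background. Without it the differences were −0.77 for SF3B6 and −0.65 for SNRPC. In blastocysts SNRPC was 15051, 31682 and 3460 in prepubertal pools and 715.1, 11427 and 14236 in adult pools (1.27, SE 1.16, and −0.11 without adult blastocyst replicate 1).

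SNRPD2, an Sm protein, was 10809, 1029 and 1012 in prepubertal blastocysts and 5.1, 1313 and 651.2 in adult blastocysts (3.09, SE 1.47). SF3B4, which holds pre-mRNA before the branch point, was 3235, 179.4 and 1142 in prepubertal blastocysts and 6.2, 37.6 and 682.1 in adult ones (3.26, SE 1.51). The donor groups overlapped in each gene. With signals floored at the highest background the differences were 0.90 for SNRPD2 and 0.32 for SF3B4. For both genes that floor also replaced values above their own array's background in both donor groups. Without adult blastocyst replicate 1 the SNRPD2 difference was 1.27. The change of the donor difference between the stages was 5.15 (SE 2.08, adjusted p = 0.873) for SNRPD2 and 4.30 (SE 1.64, adjusted p = 0.873) for SNRPC. It was 3.33 for SNRPD2 without adult blastocyst replicate 1 and 1.92 for SNRPC without prepubertal 8-16-cell replicate 3.

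By family, the uncalled donor differences pointed as follows, with no test of one family against another. In blastocysts 8 of 9 SF3 and 7 of 8 SNRP genes were higher in prepubertal pools, with medians of 1.01 and 1.001, and 14 of 16 HNRNP genes were lower, with a median of −0.33. Of all genes 56.2% were higher, with a median of 0.18. Of the 462 genes with a mean of at least 12 on the log2 scale, 47.6% were higher, with a median of −0.06. Relative to the median of all genes, the SF3 median of 0.83 was 0.39 without prepubertal blastocyst replicate 3. The SNRP median of 0.82 was 0.40 without adult blastocyst replicate 1 and 0.09 with signals floored at the highest background. In 8-16-cell embryos 7 of 9 SF3 genes were lower in prepubertal pools, with a median of −0.99, whereas 62.7% of all genes were higher, with a median of 0.46. Of the 462 genes with a mean of at least 12, 41.8% were higher there, with a median of −0.23. Relative to all genes the SF3 median was −1.45, and −0.12 with the floor. The change of the donor difference between the stages was above 0 in 9 of 9 SF3 genes, from 0.35 to 8.93, with a median of 3.03. Among all genes it was above 0 in 45.0%, with a median of −0.22. Among the 462 genes with a mean of at least 12 it was above 0 in 57.1%, with a median of 0.24. An unadjusted p under 0.05 was reached by 3 of the 9, against 5.69% of all genes. These were SF3A2, SF3A3 (4.08, SE 1.82) and SF3B6 (4.02, SE 1.93), and none was called. Without prepubertal 8-16-cell replicate 3 the change was 2.34 for SF3A3 and 1.68 for SF3B6. The median for the 44 genes together was 0.62.

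On prepubertal 8-16-cell replicate 3, 1 of 9 SF3 genes was above background, against 5 and 8 in the other 2 pools of its group. Adult 8-16-cell pools had 8, 9 and 7, prepubertal blastocysts 9, 6 and 7 and adult blastocysts 6, 7 and 8. Of all genes, 8.575% were above background on that array, against 25.9% and 31.0% on the other 2 of its group. The share was 31.86% to 49.35% in the other groups. Taken relative to the median of all genes, the SF3 median change was 3.25, and without prepubertal 8-16-cell replicate 3 it was 1.83. With signals floored at the highest background it was 0.55. The spike-in hybridisation controls were 3.03-fold brighter in prepubertal than in adult 8-16-cell arrays and 1.06-fold in blastocyst arrays. Their part in the donor differences was not tested.

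**Figure D4:**
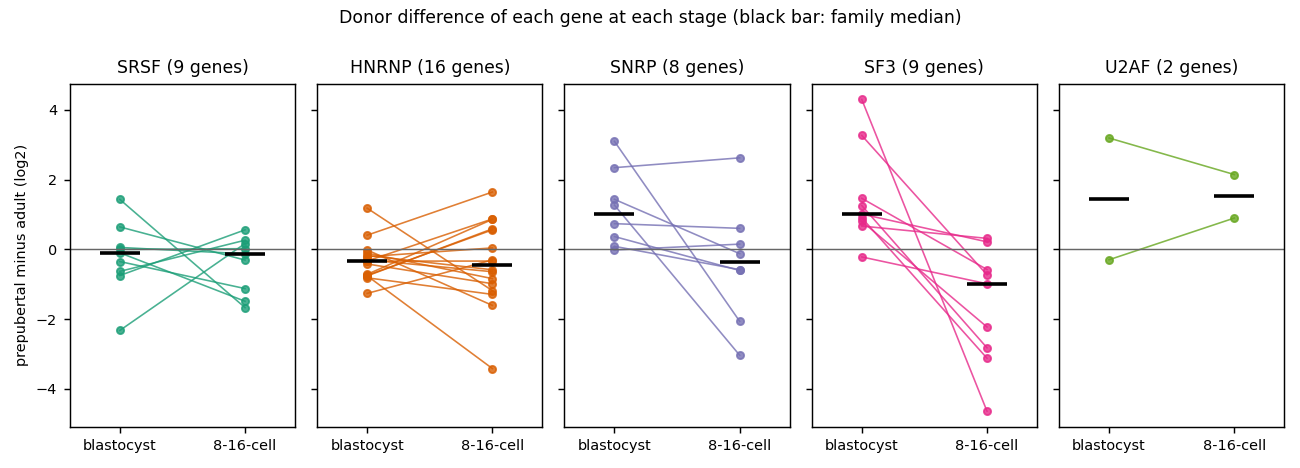
Difference between prepubertal and adult pools (log2, prepubertal minus adult) of each gene in blastocysts (left) and 8-16-cell embryos (right), by family, with a black bar at the family median. The SF3 medians are 1.01 in blastocysts and −0.99 in 8-16-cell embryos; no gene was called at either stage.

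Other genes of the splicing machinery, from a list of 139 of which 109 were measured, give the setting. Between the stages over both donor groups 7 were called higher and 4 lower in blastocysts, or 10.1%, against 9.87% of all genes. Among 28 core snRNP proteins outside the names above, 4 were higher and 0 lower: the LSM ring proteins LSM5 (4.39, SE 0.96, limma adjusted p = 0.000513), LSM6 (3.43, SE 0.88) and LSM7 (4.37, SE 1.04), and the U5 helicase SNRNP200 (3.43, SE 1.07). Among 14 SR-related proteins and kinases TRA2B, a splicing activator, fell by 2.95 (SE 0.53, adjusted p = 1.1e-05) and RBM25 by 2.59 (SE 0.87), and RBM39 was higher by 2.84 (SE 0.93). Among 20 other regulators RBMX fell by 3.10 (SE 0.84) and SYNCRIP by 2.53 (SE 0.70), both hnRNPs whose symbols fall outside the names above. PUF60, a U2AF-related factor (2.32, SE 0.72), was the 1 called among 25 step factors, and the export adaptor ALYREF (2.56, SE 0.83) the 1 among 11 exon junction, cap and export genes. None of 11 snRNP assembly genes was called in that limma fit. In prepubertal embryos 4 were higher (LSM3, ALYREF, RBM39 and the Cajal body protein COIL, the last by at least 4.82-fold) and TRA2B was lower (4.59%, against 3.95% of all genes), and in adult embryos 2 were higher, LSM5 (4.60, SE 1.36) and LSM7, by at least 7.80-fold (1.83%, against 3.17%). Between the donor groups none was called at either stage.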

How the data were processed

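Total RNA of 12 embryo pools was amplified and hybridised to an Affymetrix bovine array, per the labels. Each deposited value is the signal intensity of 1 probe set, computed by the authors with MAS5, per the submitters' processing notes, whose version and settings the sources used here do not give. Array means, with 2% trimmed from both tails, were 500.19 to 500.31. Of 24128 probe sets, 112 controls were left out. In the platform annotation 13292 probe sets named 1 gene, 86 several and 10638 none, and all 66 probe sets of the genes described matched RefSeq (assembly ARS-UCD2.0) by gene identifier. No 2 arrays shared more than 0.00414% of their values.

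Values were taken as log2(signal + 16), without further normalization. The 4 group means were fitted with limma 3.58.1 in R 4.3.3 (eBayes with a trend), two-sided. The fit had 8 residual degrees of freedom, against 195.66 for the spread shared over probe sets of like mean signal. The median SE was 0.92 for the stage difference over both donor groups and 1.30 for a single comparison of 3 against 3 arrays, which limits the precision. The fit was tested on simulated data. Background was the highest of 27 *Bacillus* control probe sets per array. "At least" folds set the brighter group's mean against the mean of the dim arrays' backgrounds, both on the log2 scale. Named genes were every called one, the 3 of smallest stage p and the 2 brightest of each family, those of smallest p for the donor comparisons, and hallmark members. SRSF4, SRSF5, SRSF7, SRSF10, SRSF11 and HNRNPUL1 fall outside that rule and were picked after their values were seen. The genes, lists and tests were chosen with earlier results of these data known. Alternatives were the pseudocount, quantile normalization, a filter and a floor at background, no trend, array weights, averaged probe sets, the replicate number as a block, and each array left out. Protein features of the genes were not analysed here.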

Additional observations from a re-analysis of the deposited data

How the results depend on the processing

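The calls among these genes were sensitive to how the spread was estimated. Without a trend in limma, 1 of the 44 genes was called between the stages over both donor groups in place of 5 (SRSF6), and 1 in prepubertal embryos in place of 3; adjusted p was then 0.0934 for SRSF3, 0.157 for HNRNPDL, 0.251 for SNRPG and 0.0881 for SRSF9. In prepubertal embryos 1 gene was called after quantile normalization, with SRSF3 at 0.0928 and HNRNPDL at 0.092, and 1 with the probe sets of a gene averaged. In adult embryos 2 were called with array weights, in place of 0. Leaving out each array in turn gave 3 to 7 called genes over both donor groups, 1 to 4 in prepubertal and 0 to 1 in adult embryos. SRSF6 missed the threshold without prepubertal 8-16-cell replicate 2 (0.0745), adult 8-16-cell replicate 1 (0.0542) or adult blastocyst replicate 3 (0.0833). SNRPG in adult embryos passed without prepubertal 8-16-cell replicate 3 (0.00916). No called value changed sign under the alternatives run. Of single genes by comparison and alternative, 3190 kept their direction and side of the threshold, 144 uncalled ones changed sign, 17 gained and 27 lost a call. Adjusted p over both donor groups ranged over the alternatives from 4e-05 to 0.0934 for SRSF3, 0.00139 to 0.657 for HNRNPDL, 5.5e-05 to 0.251 for SNRPG, 0.00163 to 0.432 for SRSF6 and 0.00126 to 0.0961 for SRSF9. The cause of these changes was not tested.

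Over all probe sets 1538 were called between the stages over both donor groups, 603 with signals floored at the highest background and 1203 to 1671 without single arrays. In prepubertal embryos the counts were 563, 298 and 272 to 611, and in adult embryos 512, 241 and 253 to 794, with 889 under array weights. Between donor groups at the 8-16-cell stage, 5 were called, 3 with a pseudocount of 1, of 64 or array weights, 8 after quantile normalization, 0 with the filter or without a trend, 1 with the floor and 2 to 14 without single arrays. The change of the donor difference between stages had 0 to 1.

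Family medians moved under the floor, which sets dim genes equal, and without single arrays. Relative to the median of all genes, the U2AF median under the floor was 0.0538 over both donor groups, 0.12 in prepubertal and 0 in adult embryos (0.9998 as reported, −0.0157 to 1.53 without single arrays), 0 between donors at the 8-16-cell stage (0.0427 to 1.59) and 0.12 in blastocysts. The SRSF median in prepubertal embryos was −0.15 (1.16 as reported, −0.10 to 1.98), the HNRNP median between donors at the 8-16-cell stage 0 (−1.06 to −0.0913), and the SF3 change between stages 0.55 (1.83 to 4.31). Without single arrays the SRSF median between donors at the 8-16-cell stage was −1.43 to −0.44, and the change between stages 0.12 to 1.204 for SRSF and −0.40 to 0.51 for HNRNP.

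The labels do not say whether the replicate numbers pair the samples. Over all probe sets, same-numbered pools correlated at −0.03 to 0.05 in their deviations (mean 0.0148, 18 pairs, none over 0.1). Different-numbered pools correlated at −0.07 to 0.04 (mean −0.0074, 36 pairs). At most 35.4% of probe sets were above background on an array, so this check cannot exclude pairing. With the number as a replicate block, 5 genes were called over both donor groups, 4 in prepubertal embryos, where SNRPG also passed (adjusted p = 0.0369), and 0 in adult embryos; 1591, 608 and 540 probe sets were called.

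Counting only probe sets above background on at least 6 arrays, an alternative chosen after seeing the data, 4 genes had probe sets whose stage differences disagreed in sign, in place of 9.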
